A study of Mus musculus with 6 samples.

Results

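The 10 genes described here carry out or control de novo fatty acid synthesis: *Acly*, *Acaca*, *Acacb*, *Fasn*, *Elovl6*, *Scd1* and *Scd2*, which encode enzymes, and *Srebf1*, *Mlxipl* and *Thrsp*, which encode regulators. They were chosen by symbol from the 35976 rows of a table of RNA-seq counts, and all 10 were present and passed the expression filter. The tissue was brown adipose tissue (BAT) of 10-week-old mice on a C57BL/6J background, from 3 sST2-KO mice and 3 wild-type (WT) mice. The study's methods describe its animals as male and its controls as WT mice from heterozygous crosses. In the sST2-KO mice, CRISPR/Cas9 removed the intron of *Il1rl1* that holds the stop codon of soluble ST2 (sST2), a secreted form of the IL-33 receptor. The deletion is carried by every cell of the animal, so it is not specific to BAT. In both groups the nerves of BAT had been cut and the mice had been kept at 10 °C for 8 h. There was no sham-operated or warm group in this RNA-seq series, so cold and denervation are shared by all 6 libraries. Libraries are labelled as separate samples, so p values set the difference between the groups against the spread between samples within them.

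In de novo fatty acid synthesis, ATP-citrate lyase (*Acly*) releases acetyl-CoA from citrate, acetyl-CoA carboxylase turns it into malonyl-CoA, and fatty acid synthase (*Fasn*) builds palmitate from both. *Elovl6* lengthens palmitate and the stearoyl-CoA desaturases *Scd1* and *Scd2* introduce the first double bond. SREBP-1, encoded by *Srebf1*, and ChREBP, encoded by *Mlxipl*, are transcription factors that switch these genes on in response to insulin and glucose, and BAT in the cold is known to synthesize and burn fatty acids at the same time.

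For 9 of the 10 genes, the 250 bases before the start site of the canonical transcript were read from the GRCm39 genome and searched on both strands for the letters of an E-box (CACGTG), a sterol regulatory element (TCACNCCAC, abbreviated SRE) and an NF-Y site (CCAAT). The sequences of *Scd1* and *Elovl6* are shown because these genes were among those with the largest changes, and those of *Acaca* and *Mlxipl* because they held an SRE. Capitals mark the matches, no match overlapped another, and each sequence is written 5′ to 3′ on the strand of its gene.
Scd1 (chr19:44396341-44396590, minus strand): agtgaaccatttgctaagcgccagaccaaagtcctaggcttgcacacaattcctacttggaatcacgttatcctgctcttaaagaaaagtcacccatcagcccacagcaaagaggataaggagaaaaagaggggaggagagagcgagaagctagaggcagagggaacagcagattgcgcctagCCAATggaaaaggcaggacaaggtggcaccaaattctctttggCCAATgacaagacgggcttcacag
Elovl6 (chr3:129325754-129326003, plus strand): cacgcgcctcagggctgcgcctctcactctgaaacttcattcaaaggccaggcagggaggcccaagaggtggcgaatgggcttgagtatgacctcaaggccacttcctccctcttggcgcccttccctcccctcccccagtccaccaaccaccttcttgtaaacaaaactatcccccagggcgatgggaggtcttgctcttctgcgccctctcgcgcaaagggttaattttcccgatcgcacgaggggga
Acaca (chr11:84063698-84063947, plus strand): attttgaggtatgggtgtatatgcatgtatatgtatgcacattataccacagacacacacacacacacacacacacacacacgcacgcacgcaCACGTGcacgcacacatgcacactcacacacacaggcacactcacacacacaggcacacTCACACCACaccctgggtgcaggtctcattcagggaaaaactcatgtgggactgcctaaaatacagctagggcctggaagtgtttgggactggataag
Mlxipl (chr5:135135505-135135754, plus strand): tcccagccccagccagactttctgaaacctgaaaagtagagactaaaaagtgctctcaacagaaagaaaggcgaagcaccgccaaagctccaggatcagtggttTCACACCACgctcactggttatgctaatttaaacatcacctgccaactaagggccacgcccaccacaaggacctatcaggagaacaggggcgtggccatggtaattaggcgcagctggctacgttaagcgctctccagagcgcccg

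The SRE letters were found before 2 of these 9 genes and before 1.12% of 21770 protein-coding genes searched in the same way. An E-box was found before 1 member, *Acaca*, and before 6.26% of all genes, and the NF-Y letters before 1 member, *Scd1*, and before 36.5% of all genes. These matches describe these windows only. The window before *Elovl6* held none of the 3 motifs.

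Together the 10 genes held 1.42% ± 0.493 of all counts in WT mice and 0.263% ± 0.108 in sST2-KO mice (SD, n = 3 each). *Scd1* alone made up 74.7% ± 3.62 of the members' counts in WT mice and 46.6% ± 3.71 in sST2-KO mice (SD, n = 3 each). All values below are TMM-normalized CPM. Changes are log2 fold changes of sST2-KO against WT with their standard error (SE), and p values are those of edgeR's quasi-likelihood test, adjusted over 14542 genes. A gene is named as called lower or higher when it passed 0.05 by adjusted p and differed by more than 2-fold. Of the 10 members, 8 had a lower mean in sST2-KO mice and 4 were called lower. None was called higher by edgeR or by DESeq2, or was higher at an unadjusted p under 0.05 in edgeR. *Scd2*, which was higher, came close to the latter, with an unadjusted p of 0.05004. Over all genes tested, 7.10% were called lower and 9.04% were called higher. For 7 members all 3 sST2-KO values were lower than all 3 WT values, which was so for 19.7% of all genes tested. The median log2 fold change was -1.29 over the members and 0.034 over all genes tested.

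**Figure D1:**
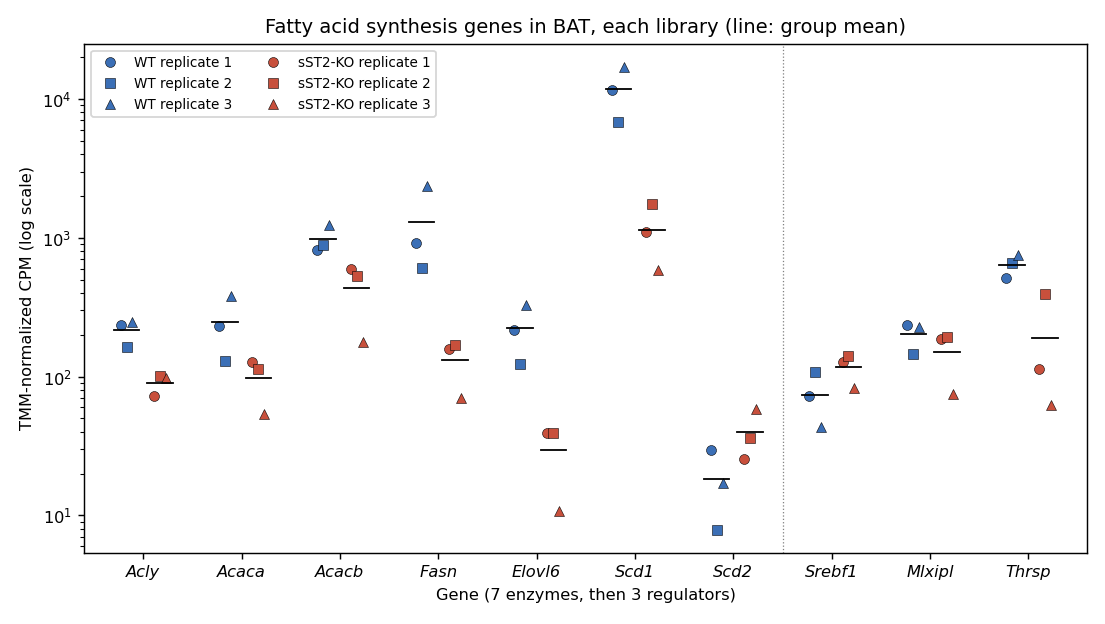
TMM-normalized CPM (log scale) of the 10 genes in each library, with WT in blue, sST2-KO in red, 1 symbol per replicate number and a line at each group mean. The red symbols of Fasn, Elovl6 and Scd1 sit far below the blue ones, while those of Scd2, Srebf1 and Mlxipl overlap them.

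*Fasn* (GRCm39, chromosome 11, 120696672 to 120715995, minus strand), the gene of the synthase that builds palmitate, had 922, 607 and 2375 CPM in WT mice (replicates 1 to 3, in this order throughout) and 159, 167 and 70.7 CPM in sST2-KO mice. The lowest WT library thus stayed well above the highest sST2-KO library, and WT replicate 3 was far above the other WT mice. *Fasn* fell 9.84-fold, with a log2 fold change of -3.30 (SE 0.60, adjusted p = 0.0166). *Scd1* (chromosome 19, 44382894 to 44399154, minus strand), the main desaturase gene of adipose tissue, had 11645, 6871 and 16968 CPM in WT mice and 1100, 1750 and 589 CPM in sST2-KO mice. It fell 10.3-fold, with a log2 fold change of -3.37 (SE 0.57, adjusted p = 0.0150), and the groups were far apart. *Elovl6* (chromosome 3, 129326004 to 129432144, plus strand) had 218, 124 and 327 CPM in WT mice and 38.9, 38.9 and 10.8 CPM in sST2-KO mice. It fell 7.53-fold, with a log2 fold change of -2.91 (SE 0.56, adjusted p = 0.0176). In all 3 genes WT replicate 3 was the highest library and sST2-KO replicate 3 the lowest.

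The enzymes upstream of *Fasn* had fold changes nearer to 0, and their difference from *Fasn* was not tested. *Acly* (chromosome 11, 100367165 to 100440756, minus strand) had 234, 164 and 248 CPM in WT mice and 73.0, 101 and 97.8 CPM in sST2-KO mice. Its groups did not overlap, and it fell with a log2 fold change of -1.25 (SE 0.24, adjusted p = 0.0176), the smallest SE of the 10 genes. The 2 acetyl-CoA carboxylase genes did not pass the test. *Acaca* (chromosome 11, 84020476 to 84292477, plus strand), whose product feeds malonyl-CoA into synthesis, had 233, 130 and 381 CPM in WT mice and 127, 114 and 53.5 CPM in sST2-KO mice. WT replicate 2 and sST2-KO replicate 1 were almost equal, and the log2 fold change was -1.34 (SE 0.46, adjusted p = 0.0774). *Acacb* (chromosome 5, 114284307 to 114388822, plus strand), whose product lies at mitochondria and restrains fatty acid entry there, had 817, 881 and 1246 CPM in WT mice and 597, 527 and 177 CPM in sST2-KO mice. Its log2 fold change was -1.18 (SE 0.46, adjusted p = 0.108), with sST2-KO replicate 3 far below the other 2. The ratio of *Acacb* to *Acaca* reads was 4.51 ± 1.95 in WT mice and 4.21 ± 0.790 in sST2-KO mice (SD, n = 3 each), a difference smaller than the spread between mice.

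*Scd2* (chromosome 19, 44281613 to 44295303, plus strand), the neighboring desaturase gene, had 29.5, 7.89 and 17.1 CPM in WT mice and 25.4, 36.3 and 58.4 CPM in sST2-KO mice, so that the groups overlapped. Its log2 fold change was 1.14 (SE 0.49, adjusted p = 0.138). The ratio of *Scd1* to *Scd2* reads was 395, 871 and 993 in WT mice and 43.3, 48.2 and 10.1 in sST2-KO mice. Every sST2-KO ratio was thus lower than every WT ratio by a wide margin, and *Scd1* remained the more abundant of the 2 in all 6 libraries. The 2 genes are related in sequence, and how reads that match both were counted is not given in the sources used here.

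Of the 3 regulators, none passed the edgeR test, 1 (*Thrsp*) had an unadjusted p under 0.05, and DESeq2 called the same gene. *Srebf1* (chromosome 11, 60089913 to 60113407, minus strand) had 71.9, 108 and 43.1 CPM in WT mice and 127, 141 and 83.3 CPM in sST2-KO mice. The groups overlapped, and the log2 fold change of 0.66 (SE 0.35, adjusted p = 0.225) had the opposite sign to that of *Fasn*, *Scd1* and *Elovl6*. *Mlxipl* (chromosome 5, 135118744 to 135168615, plus strand) had 235, 144 and 228 CPM in WT mice and 185, 192 and 74.5 CPM in sST2-KO mice. Its log2 fold change was -0.42 (SE 0.38, adjusted p = 0.465), and 2 of the sST2-KO libraries lay inside the WT range. Both genes have alternative first exons that give proteins of different activity, and counts per gene add these forms together. *Thrsp* (chromosome 7, 97062139 to 97066937, minus strand), which encodes the lipogenic protein Spot 14, had 511, 658 and 746 CPM in WT mice and 114, 394 and 62.8 CPM in sST2-KO mice. The groups did not overlap, but the log2 fold change of -1.75 had an SE of 0.63 and an adjusted p of 0.0891. Without sST2-KO replicate 2, the highest of its group, the value was -2.88 with an adjusted p of 0.0201, and with any other library left out it was -1.89 to -1.33 with an adjusted p of 0.123 to 0.224.

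Divided by the length of the canonical transcript in kb, to compare genes, the highest mean levels in WT mice were 2354 CPM per kb for *Scd1*, 500.0 for *Thrsp*, 121 for *Fasn* and 108 for *Acacb*. *Mlxipl* followed at 55.6, *Acly* at 48.9, *Elovl6* at 36.3, *Acaca* at 26.1, *Srebf1* at 17.1 and *Scd2* at 3.33 CPM per kb. *Srebf1* cannot be ranked against *Elovl6* and *Acaca* in WT mice, since it was above both in WT replicate 2. *Fasn* and *Acacb* cannot be ranked in WT mice, since *Fasn* had a coefficient of variation of 72.5%. In sST2-KO mice *Scd1* stayed the highest at 228 CPM per kb and *Thrsp* came next at 149. *Fasn*, at 12.3 CPM per kb, then lay below *Acacb* at 47.8, *Mlxipl* at 41.4, *Srebf1* at 27.0 and *Acly* at 20.5. *Acaca* followed at 10.3, and *Elovl6* at 4.82 and *Scd2* at 7.34 had the lowest means. These last 2 cannot be ranked, since *Elovl6* was above *Scd2* in sST2-KO replicate 1. Nor can *Scd2* be ranked against *Acaca* and *Fasn*, since it was above both in sST2-KO replicate 3. With the length of all annotated exons in place of the canonical transcript, *Fasn* at 11.3 was above *Acly* at 6.22 in sST2-KO mice, and *Elovl6* at 26.2 was above *Acly* at 14.8 in WT mice. On that length *Acaca* at 5.33 and *Scd2* at 5.32 were almost equal in sST2-KO mice.

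None of the 4 calls was kept without WT replicate 3, which had the highest value of the WT mice in 7 of the 10 genes. Without it, the log2 fold changes were -2.53 for *Fasn*, -3.02 for *Scd1*, -2.53 for *Elovl6* and -1.14 for *Acly*, but the adjusted p values were 0.0610, 0.0622, 0.0689 and 0.0754, and no member was called. The number of genes called lower in the whole table also dropped, from 1033 to 22. With any other library left out, these 4 genes were called. DESeq2, run on the same counts, called 7 members lower, with *Acaca*, *Acacb* and *Thrsp* in addition. Over the whole table it also called more genes lower, 1280 against 1033 by edgeR, of 14542 tested.

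The libraries also differed in the RNA of cell type markers. Summed over 10 general adipocyte markers, the level was 27469 to 33332 CPM in WT mice and 17815, 16153 and 8979 CPM in sST2-KO mice. All 10 markers were lower and 2, *Adipoq* and *Lpl*, were called, with *Fabp4* at -0.98 (adjusted p = 0.122) and *Lpl* at -1.70 (adjusted p = 0.0348) on the log2 scale. The 8 brown adipocyte markers were all lower and 7 were called, and their sum was 8094 to 15420 CPM in WT mice and 334 to 1832 CPM in sST2-KO mice, with *Ucp1* at -4.04 (adjusted p = 0.0226) and *Cidea* at -3.37 (adjusted p = 0.0183). The 8 macrophage markers were all higher, with *Lyz2* called at 2.34 (adjusted p = 0.0495) and *C1qb* at 1.00 (adjusted p = 0.185). Without sST2-KO replicate 3 these were at 1.06 and 0.16, and *Csf1r* and *C1qa*, named after their values were seen, turned from 1.06 and 0.80 to -0.15 and -0.13. *Lyz2* did not pass without any 1 WT library (adjusted p of 0.103 to 0.170). Their sum was 752 to 1014 CPM in WT mice and 1381, 1287 and 5771 CPM in sST2-KO mice. Of 5 T cell markers tested, 4 (*Cd3d*, *Cd3e*, *Cd3g* and *Cd8a*) were called higher, with *Cd8a* at 3.77 and *Cd3d* at 3.13 (adjusted p = 0.00901 for both), and the list summed to 6.79 to 10.1 CPM in WT mice and 64.3 to 91.2 CPM in sST2-KO mice. All 10 skeletal muscle markers were higher and 2, *Myl1* and *Pvalb*, were called, while the most abundant, *Acta1* at 4.10 (adjusted p = 0.155) and *Myh4* at 5.13 (adjusted p = 0.106), were not. Without WT replicate 1, which had the most muscle RNA of the WT mice, both passed, at 9.42 (adjusted p = 0.0258) and 10.39 (adjusted p = 0.0263). This list had sums of 1335, 72.2 and 64.9 CPM in WT mice and 6767, 3702 and 15489 CPM in sST2-KO mice. The hepatocyte list summed to 6453 CPM in WT replicate 2 and to 12.2 to 61.8 CPM in the other 5 libraries, with *Alb* at 3181 CPM and *Hpx* at 1076 CPM in that replicate. Of the endothelial markers *Kdr* was called lower, with *Pecam1* at 0.51 and *Cdh5* at -0.04, and of the Schwann cell markers *Sox10* was called lower, with *Mbp* at -0.10. None of the 6 fibroblast markers was called by edgeR or DESeq2 or had an unadjusted p under 0.05, with *Col3a1* at 0.37 and *Col1a1* at 0.83. *Adipoq*, *Cd3e*, *Cd3g*, *Myl1*, *Pvalb*, *Kdr* and *Sox10* were named after their values were seen.

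**Figure D2:**
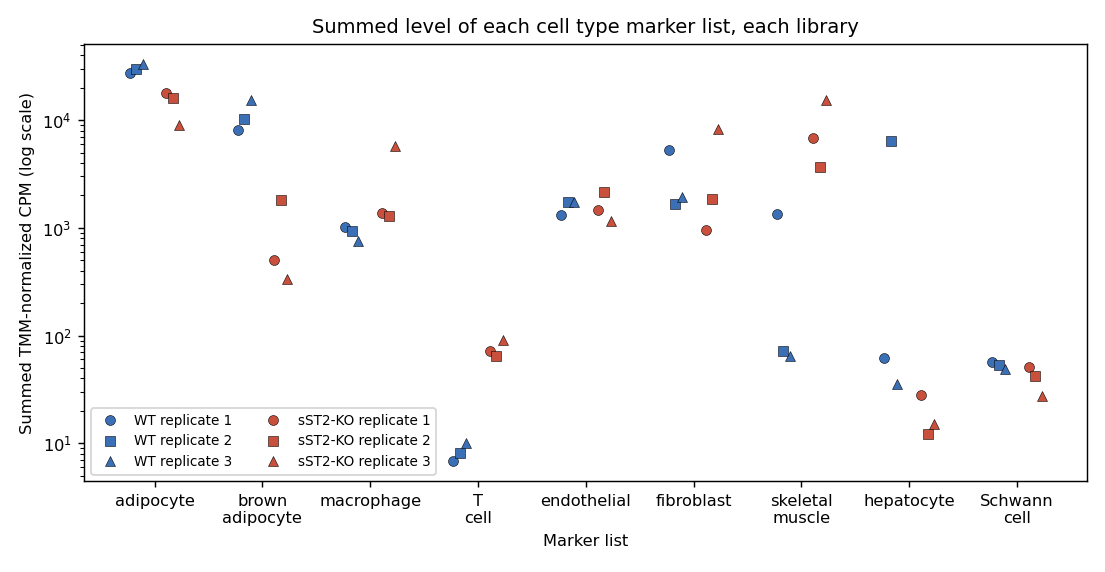
Summed TMM-normalized CPM (log scale) of 9 marker lists in each library, with WT in blue, sST2-KO in red and 1 symbol per replicate number. Adipocyte and brown adipocyte sums are lower and skeletal muscle, T cell and macrophage sums higher in every sST2-KO library. The hepatocyte sum stands out in WT replicate 2.

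WT replicate 2, the library with hepatocyte RNA, had the lowest value of the WT mice in 7 of the 10 genes, and without it the log2 fold changes of *Fasn* and *Scd1* were -3.64 and -3.64. sST2-KO replicate 3, which had the most macrophage and muscle RNA, had the lowest value of the sST2-KO mice in 8 of the 10 genes. Without it the log2 fold changes of *Fasn*, *Scd1*, *Elovl6* and *Acly* were -3.00, -3.06, -2.52 and -1.31. In bulk tissue, fewer adipocytes and less RNA of these genes per adipocyte cannot be told apart.

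The members were also scaled by the summed counts of the 10 adipocyte markers in place of TMM. On this scale 1.37% of all genes tested were called lower and 56.2% were called higher, and the median log2 fold change of all genes was 1.22. *Fasn*, *Scd1* and *Elovl6* were still called lower, with log2 fold changes of -2.20 (SE 0.48, adjusted p = 0.00584), -2.30 (SE 0.42, adjusted p = 0.00359) and -1.91 (SE 0.45, adjusted p = 0.00738). These 3 calls were kept with each library left out in turn, where the adjusted p values reached at most 0.0389. *Acly*, *Acaca* and *Acacb* were at -0.01, -0.27 and -0.17, with SEs of 0.43, 0.41 and 0.37. Their adjusted p values were 0.976, 0.571 and 0.695, so no difference from the adipocyte sum was detectable for them. *Thrsp* was at -0.74 (adjusted p = 0.210) and *Mlxipl* at 0.60 (adjusted p = 0.178). *Scd2* and *Srebf1* were called higher on this scale, at 2.46 (adjusted p = 0.0103) and 1.74 (adjusted p = 0.00912), a direction that 56.2% of all genes shared at this threshold. Without WT replicate 3 the adjusted p of *Srebf1* was 0.0605.

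The ratios in single libraries show the same split. As a log2 ratio to the adipocyte sum, *Scd1* was at -1.24, -2.12 and -0.97 in WT mice and at -4.02, -3.21 and -3.93 in sST2-KO mice. *Fasn* was at -4.90, -5.63 and -3.81 in WT mice and at -6.81, -6.59 and -6.99 in sST2-KO mice, so the sST2-KO mice lay close together below all WT mice. *Srebf1* was at -8.58, -8.12 and -9.59 in WT mice and at -7.13, -6.84 and -6.75 in sST2-KO mice, all above the WT mice. The median of all genes was also higher on this scale, at 1.22. The share of all genes that separate in this direction was not computed. The adipocyte markers had lower levels themselves, with 2 of 10 called, *Lpl* among them. The sum is weighted to its most abundant genes, with WT means of 10495 CPM for *Fabp4* and 6247 CPM for *Lpl* out of 30256 CPM. This scale thus sets the members mainly against the most abundant adipocyte markers and does not count cells.

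**Figure D3:**
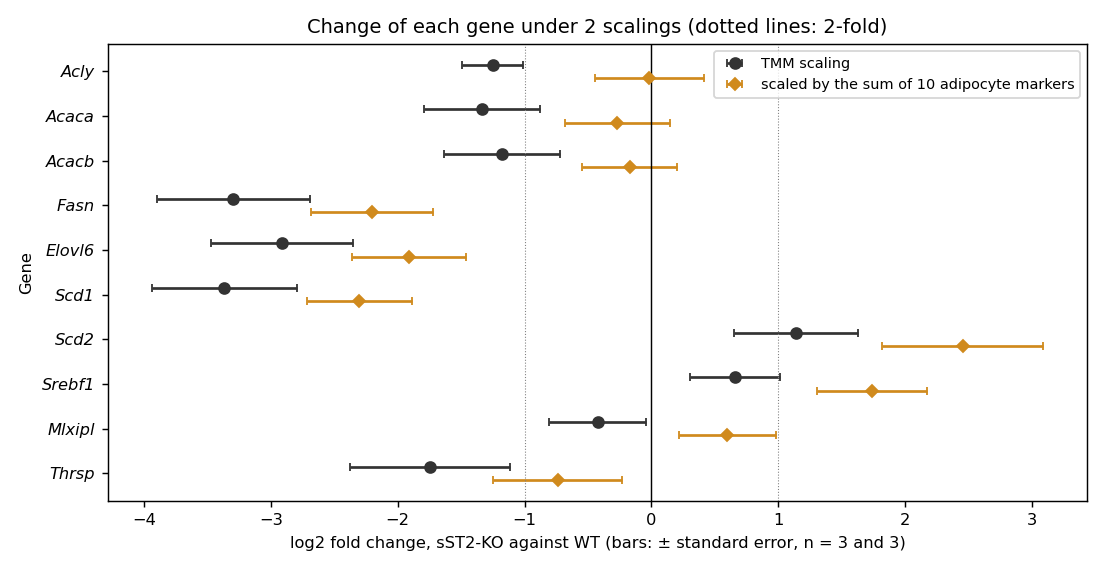
Log2 fold change of sST2-KO against WT (x axis) with its standard error for each gene (n = 3 and 3), under TMM scaling (black) and scaled by the sum of 10 adipocyte markers (orange). Under both scalings Fasn, Elovl6 and Scd1 lie beyond 2-fold to the left, while Acly, Acaca and Acacb move to between -0.27 and -0.01 on the adipocyte scale.

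Around the members, 62 genes of the pathway were examined in 6 lists, of which 58 were tested. Of these, 16 were called lower and 2 were called higher, against 7.10% and 9.04% of all genes tested. The median log2 fold change was -0.48. At an adjusted p under 0.05 with any fold change, 20 were lower, against 9.10% of all genes tested. Without WT replicate 3 only 1 pathway gene was called lower and none was called higher. Under adipocyte scaling 2 pathway genes were called lower and 18 higher, where 1.37% and 56.2% of all genes tested were called. The values of pathway genes below are those under TMM scaling.

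Of the genes that supply acetyl-CoA and NADPH, all 8 were lower and 5 were called lower. *Slc25a1*, the carrier that brings citrate out of mitochondria, had 160, 211 and 354 CPM in WT mice and 76.3, 76.0 and 40.1 CPM in sST2-KO mice, a change of -1.91 (SE 0.38, adjusted p = 0.0186). *Acss2*, which makes acetyl-CoA from acetate, fell by 1.85 on the log2 scale (adjusted p = 0.0203). *Me1*, the malic enzyme that yields NADPH, fell by 1.65 (adjusted p = 0.0315) and *Mdh1*, cytosolic malate dehydrogenase, by 1.62 (adjusted p = 0.0153). These 4 genes were named by a rule that required no overlap between the groups, so their lack of overlap is not a result. The other called gene, *Pgls*, was named after its values were seen. *Slc25a1*, *Acss2* and *Mdh1* lost their calls only without WT replicate 3 (adjusted p of 0.0679, 0.0789 and 0.0624), and *Me1* also without WT replicate 1 or sST2-KO replicate 2 or 3 (at most 0.111).

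Of the 16 genes of elongation and desaturation, 12 were tested and 4 were called lower. *Elovl3*, an elongase of very long chains that brown adipocytes induce in the cold, had the largest change, a log2 fold change of -5.57 (adjusted p = 0.00911). *Fads2*, the delta-6 desaturase, was at -1.29 (adjusted p = 0.0487) and kept the call only without sST2-KO replicate 2, with 0.0745 to 0.135 when any other library was left out. *Hsd17b12* and *Tecr*, which carry out later steps of the elongation cycle, were at -1.12 (adjusted p = 0.0307) and -1.03 (adjusted p = 0.0221). *Elovl3* was called with each library left out (adjusted p of at most 0.0363), whereas *Hsd17b12* lost its call without any library but sST2-KO replicate 1 (at most 0.116) and *Tecr* without WT replicate 2 or 3 or sST2-KO replicate 3 (at most 0.0892). *Scd3*, *Scd4*, *Elovl4* and *Elovl7* were too low to be tested.

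Of the genes that control SREBP, ChREBP and LXR, none of the 14 was called by edgeR or by DESeq2, 3 had an unadjusted p under 0.05 (all lower), and 2, *Nr1h3* and *Insig2*, named after their values were seen, were lower at an adjusted p under 0.05 with less than a 2-fold change. These shares are near those of all genes tested, 7.10% called lower and 9.10% lower at any fold change. *Nr1h3*, which encodes LXR alpha, was at -0.94 (adjusted p = 0.0195) and *Insig2*, which holds SREBP in the endoplasmic reticulum, was also at -0.94 (adjusted p = 0.0399). Both rose above 0.05 with some libraries left out, *Nr1h3* to at most 0.0829 (without WT replicate 2 or 3 or sST2-KO replicate 2) and *Insig2* to at most 0.107 (without any library but WT replicate 1). The 2 most abundant genes of this list, *Cebpa* and *Pparg*, which encode transcription factors of the adipocyte, were at -0.33 (adjusted p = 0.632) and -0.66 (adjusted p = 0.210).

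Among 9 genes of malonyl-CoA and AMPK control, 1 was called in each direction. This is near the shares over all genes tested, 7.10% called lower and 9.04% called higher. *Mid1ip1*, whose product helps acetyl-CoA carboxylase to polymerize and is a relative of Spot 14, had 17.2, 14.7 and 13.6 CPM in WT mice and 40.8, 21.1 and 55.2 CPM in sST2-KO mice. It rose with a log2 fold change of 1.36 (SE 0.34, adjusted p = 0.0331), but kept this call only without sST2-KO replicate 2, and with any other library left out the adjusted p was 0.0627 to 0.127. *Mlycd*, malonyl-CoA decarboxylase, fell with a log2 fold change of -1.55 (SE 0.35, adjusted p = 0.0251), a call lost without WT replicate 2 or 3 or sST2-KO replicate 2 or 3 (adjusted p of 0.0539 to 0.0966).

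Among 8 genes of insulin and glucose input, 1 was called in each direction, also near the shares over all genes tested (7.10% lower, 9.04% higher). Both were glucose transporters. *Slc2a4*, the insulin-responsive transporter GLUT4, had 164, 168 and 213 CPM in WT mice and 78.1, 78.5 and 65.9 CPM in sST2-KO mice, a log2 fold change of -1.29 (SE 0.19, adjusted p = 0.0136). *Slc2a1*, the transporter GLUT1 found in most cells, had 24.3, 36.2 and 43.9 CPM in WT mice and 63.6, 107 and 136 CPM in sST2-KO mice, a log2 fold change of 1.56 (SE 0.33, adjusted p = 0.0220). Macrophages and T cells also use GLUT1. The T cell and macrophage sums were higher in all 3 sST2-KO libraries, the macrophage sum most in replicate 3. The part of these cells in the value was not tested. The call of *Slc2a1* was lost without any 1 WT library or without sST2-KO replicate 3 (adjusted p of 0.0506 to 0.0695), and that of *Slc2a4* only without WT replicate 3 (adjusted p = 0.0610).

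A separate pathway makes short fatty acids inside mitochondria, mainly as a precursor of lipoic acid. All 7 of its genes were lower and 5 were called. *Mecr*, its last reductase, had 145, 179 and 299 CPM in WT mice and 51.1, 49.1 and 24.3 CPM in sST2-KO mice, a log2 fold change of -2.32 (SE 0.39, adjusted p = 0.0150). *Ndufab1*, the acyl carrier protein that is also a part of complex I, was at -1.95 (adjusted p = 0.0153), *Acsf3*, which makes malonyl-CoA in mitochondria, at -1.86 (adjusted p = 0.0159) and *Hsd17b8*, listed under an older symbol, at -1.25 (adjusted p = 0.0449). *Mecr*, *Ndufab1* and *Acsf3* lost their calls only without WT replicate 3 (adjusted p of 0.0612, 0.0630 and 0.0674), and *Hsd17b8* also without WT replicate 2 or sST2-KO replicate 2 or 3 (at most 0.158).

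**Figure D4:**
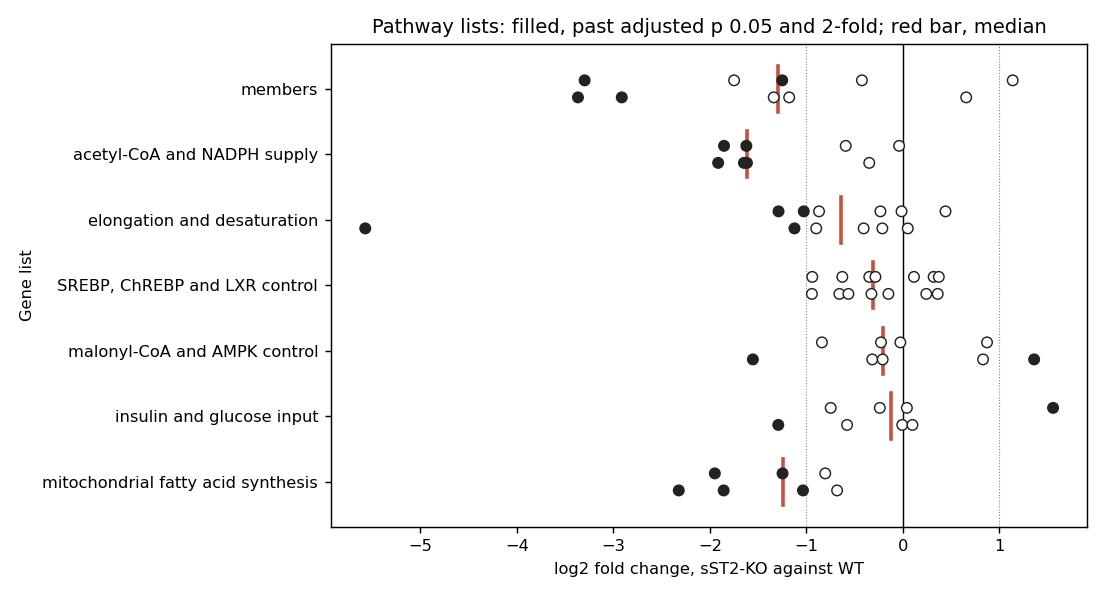
Log2 fold change of sST2-KO against WT (x axis) of the members and of each tested gene in 6 pathway lists, filled where a gene was called lower or higher, with a red bar at the median of each list. The supply list and the mitochondrial list have medians of -1.62 and -1.25, close to the members, and the list of SREBP, ChREBP and LXR control has no filled symbol.

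Across the 6 libraries, the genes whose log2 CPM followed *Fasn* most closely were *Rom1*, *Letm1*, *Ndufv2*, *Mtch2* and *4732419C18Rik*, with Pearson's r of 0.997 to 0.999. Among 14541 genes ranked in this way, *Scd1* was at rank 105 and *Elovl6* at rank 109, followed by *Acaca* at 845, *Acly* at 1306, *Acacb* at 1537, *Thrsp* at 1920 and *Mlxipl* at 3511. *Scd2* at rank 10210 and *Srebf1* at rank 10701 had negative correlations with *Fasn*, of -0.63 and -0.70. All 6 libraries enter each value, so the difference between the groups is part of each rank. With the group means removed, r with *Fasn* was 0.984 to 0.993 for the 5 genes named first, which were chosen by r over all 6 libraries. Of the members, it was then 0.97 for *Acaca*, 0.91 for *Elovl6*, 0.90 for *Scd1*, and 0.77 for both *Acacb* and *Mlxipl*. *Thrsp* was at 0.52, *Acly* at 0.40, *Scd2* at -0.003 and *Srebf1* at -0.40.

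The library totals were 9841583 to 11597730 counts in WT mice and 8159442 to 12874809 counts in sST2-KO mice, and the smallest count of any member in a library was 84, for *Scd2* in WT replicate 2. *Il1rl1*, the edited gene, was at 1.43 ± 0.599 CPM in WT mice and 8.65 ± 5.09 CPM in sST2-KO mice (SD, n = 3 each), a rise with a log2 fold change of 2.56 (SE 0.57) and an adjusted p of 0.0239, a call lost when any 1 WT library or sST2-KO replicate 3 was left out (0.0515 to 0.0936). Its counts add up the soluble and the membrane form and therefore do not check the genotype. The use of strand in counting is not given in the sources used here. From gene start to gene end, introns included, several members overlap genes on the opposite strand. *Acly* overlaps *Odad4* by 4324 bases, *Acaca* overlaps *Gm11437* by 19138 bases and *Elovl6* overlaps *Gm66250* by 12749 bases. *Acacb*, *Scd1*, *Srebf1* and *Mlxipl* overlap such genes by at most 1639 bases. The part of this that lies in exons was not computed, so the counts of these members may include reads of these neighbors. An exact two-sided permutation test of 1 gene cannot give a p below 0.1 with 3 mice against 3.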

How the data were processed

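RNA-seq of BAT from 3 WT and 3 sST2-KO mice was analyzed. The authors prepared poly-A libraries, aligned paired reads to mm39 with HISAT2 (version 2.2.1 in the submitters' processing notes) and deposited raw counts per gene symbol from htseq-count, with no normalization. Samples were grouped by their labels, and 0 columns of sample values were left unused.

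The analysis used edgeR 4.0.16 in R 4.3.3, with filterByExpr, TMM and the quasi-likelihood test without a covariate. The members and gene lists were chosen with earlier results of these data known. Genes named were the 10 members, up to 4 called genes with the largest change and no overlap in each pathway list (or, with none called, the 2 most abundant), the 2 most abundant genes of marker lists, the 5 genes most like *Fasn* by log2(CPM + 0.5) and *Il1rl1*. *Hsd17b8* was matched by an older symbol and the T cell gene *Trac* was not matched. The standard error is the log2 fold change divided by the square root of F.

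As alternatives, scaling by adipocyte markers, by RLE factors or by total counts, DESeq2 1.42.0, no filter, a minimum of 10 counts in each library, robust estimation, other fold minimums, the replicate number as a block and each library left out were tried. Leaving out libraries under adipocyte scaling was added after the values were seen. The fits were tested on simulated data. No library was a copy of another, since chi-square over degrees of freedom was 40.5 to 118 within groups. Promoters, lengths and coordinates came from GRCm39 with GENCODE annotation, the build of the files. The results of 1 marker gene and 1 promoter are not reported here. Figures were drawn with matplotlib 3.10.9.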

Additional observations from a re-analysis of the deposited data

How the results depend on the processing

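The members called lower were 4, and 7 under DESeq2, 0 under the replicate block and 0 to 5 with each library left out. Total counts and adipocyte scaling each gave 3. With total counts *Acly* was at -0.985, less than 2-fold. None was called higher, except 2 under adipocyte scaling. The members' median of -1.29 was -0.22 under adipocyte scaling, where *Mlxipl* turned from -0.42 to 0.60, and -1.53 to -1.06 with each library left out. Of the pathway genes, 16 were called lower, against 2 under adipocyte scaling, 0 under the replicate block and 1 to 15 with a library left out, and 2 were called higher, against 18, 0 and 0 to 3 in the same settings. Of all genes, 1033 were called lower, against 685 with total counts, 199 under adipocyte scaling, 0 under the block and 22 to 998 with a library left out, and 1315 higher, against 8172, 0 and 36 to 1383. DESeq2 called 1280 of all genes lower and 1602 higher. Total counts moved the median of all genes from 0.034 to 0.30 and gave 1846 higher genes, and adipocyte scaling moved it to 1.22. The causes were not tested.

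The labels do not say whether the replicate numbers pair the mice. The correlations of the deviations (-0.06, 0.22 and -0.32) come from 3 mice a group and cannot settle this. The replicate block is thus not known to be a paired design. Under it the log2 fold changes of *Fasn*, *Scd1*, *Elovl6* and *Acly* were -3.09, -3.41, -2.96 and -1.24, with adjusted p values of 0.0764, 0.0714, 0.0759 and 0.0709, and 4623 genes had an unadjusted p under 0.05. Over the 10 members' log2 fold changes, 124 of the recomputed values kept their direction and side of the threshold, 9 lost the threshold, 6 gained it and 1 reversed. The precision of the members was limited by the number of mice, 3 a group.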
